A study of Mus musculus with 7 samples.

Results

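The marker genes described here are 10 genes that are widely used to tell blood monocytes and the interstitial macrophages of the lung from the alveolar macrophages of the airspaces. They were taken by name: Ly6c2, Ccr2 and Cx3cr1 for monocytes, and C1qa, C1qb, C1qc, Folr2, Lyve1, Cd163 and Ms4a7 for interstitial macrophages. All 10 were found among the 27179 genes counted, and all 10 were among the 14436 genes that passed the filter on low counts. RNA came from alveolar macrophages sorted by flow cytometry from lungs of irradiated Ly5.1 mice on the C57BL/6 background that had been rebuilt with mixed marrow. In the Suz12 cKO group (3 libraries) 90% of the marrow was Suz12 cKO Ly5.2, and in the wild type group (4 libraries) 90% was wild type Ly5.2; in both groups the remaining 10% was wild type Ly5.1. Suz12 is a core subunit of the polycomb repressive complex PRC2, which methylates histone H3 at silent genes. The Cre line, the exons removed, the ages of the mice, the gates of the sort and any removal of Ly5.1 cells are not stated in the labels. A marker transcript in these libraries can therefore come from sorted macrophages or from other cells in the sort, and in bulk RNA more cells of a type and more RNA per cell cannot be told apart.

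Monocytes enter the lung from blood and can mature into macrophages. Ly6c2 encodes a surface protein of classical monocytes, Ccr2 the receptor for the chemokine CCL2 that draws them out of the marrow, and Cx3cr1 the receptor for fractalkine, which rises as monocytes mature and stays on in many tissue macrophages. C1qa, C1qb and C1qc encode the chains of C1q, the recognition molecule of the classical complement pathway, which is made largely by macrophages. Folr2, a folate receptor, Lyve1, a hyaluronan receptor, and Cd163, the scavenger receptor for haemoglobin bound to haptoglobin, mark macrophages that lie along vessels. Ms4a7 encodes a membrane protein with 4 spans, of the family that includes CD20, and is high in many macrophages derived from monocytes.

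Counts summed to between 48104653 and 79281431 per library, above the 14 to 20 M reads (1e6 each) stated for a sample, and no label says why. Values are counts per 1e6 (CPM) after scaling of the libraries. Suz12 was at 22.1, 23.6 and 15.1 CPM in Suz12 cKO, below the 56.5, 56.3, 73.9 and 68.9 CPM of wild type. Defining genes of alveolar macrophages were at high levels in every library: Chil3 averaged 19467 ± 1470 CPM in Suz12 cKO and 17223 ± 1420 CPM in wild type, and their surface marker Siglecf 218 ± 18.4 CPM in Suz12 cKO and 286 ± 37.1 CPM in wild type (SD, n = 3 and n = 4). Wild type replicate 2 and Suz12 cKO replicate 3 stood apart from their groups and are given separately throughout. Summed haemoglobin RNA was at 192 CPM in Suz12 cKO replicate 1, 155 CPM in Suz12 cKO replicate 2 and 56.6 CPM in wild type replicate 2, against 2.58 CPM in Suz12 cKO replicate 3 and 2.29 to 5.17 CPM in wild type replicates 1, 3 and 4.

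No marker was called in the comparison of genotypes. With calls made by edgeR's quasi-likelihood test where the adjusted p was under 0.05, 0 of 10 markers passed, against 10.3% of all tested genes. With DESeq2 0 passed, against 15.5% of them. At an unadjusted p under 0.05, 1 marker (Cx3cr1) passed with either tool, against 24.5% of tested genes with edgeR and 25.1% with DESeq2. The ranges of Suz12 cKO and wild type overlapped for all 10, whereas 25.5% of tested genes had ranges that did not. The median log2 fold change of the 10 was 0.34, beside 0.00 over all tested genes, and lay between the fitted values of the trace genes Ly6c2 and Lyve1. It depended on single libraries: it was 0.90 without wild type replicate 2, 0.14 without Suz12 cKO replicate 3 and 0.035 without wild type replicate 4, and -0.74 within the libraries rich in haemoglobin RNA. Behind this lay 3 patterns. C1qa, C1qb and Cx3cr1 were higher in each Suz12 cKO library and in wild type replicate 2 than in wild type replicates 1, 3 and 4, as was C1qc except in Suz12 cKO replicate 1, Ccr2, Cd163 and Ms4a7 were close in the group means, and Ly6c2, Folr2 and Lyve1 were at trace levels.

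**Figure D1:**
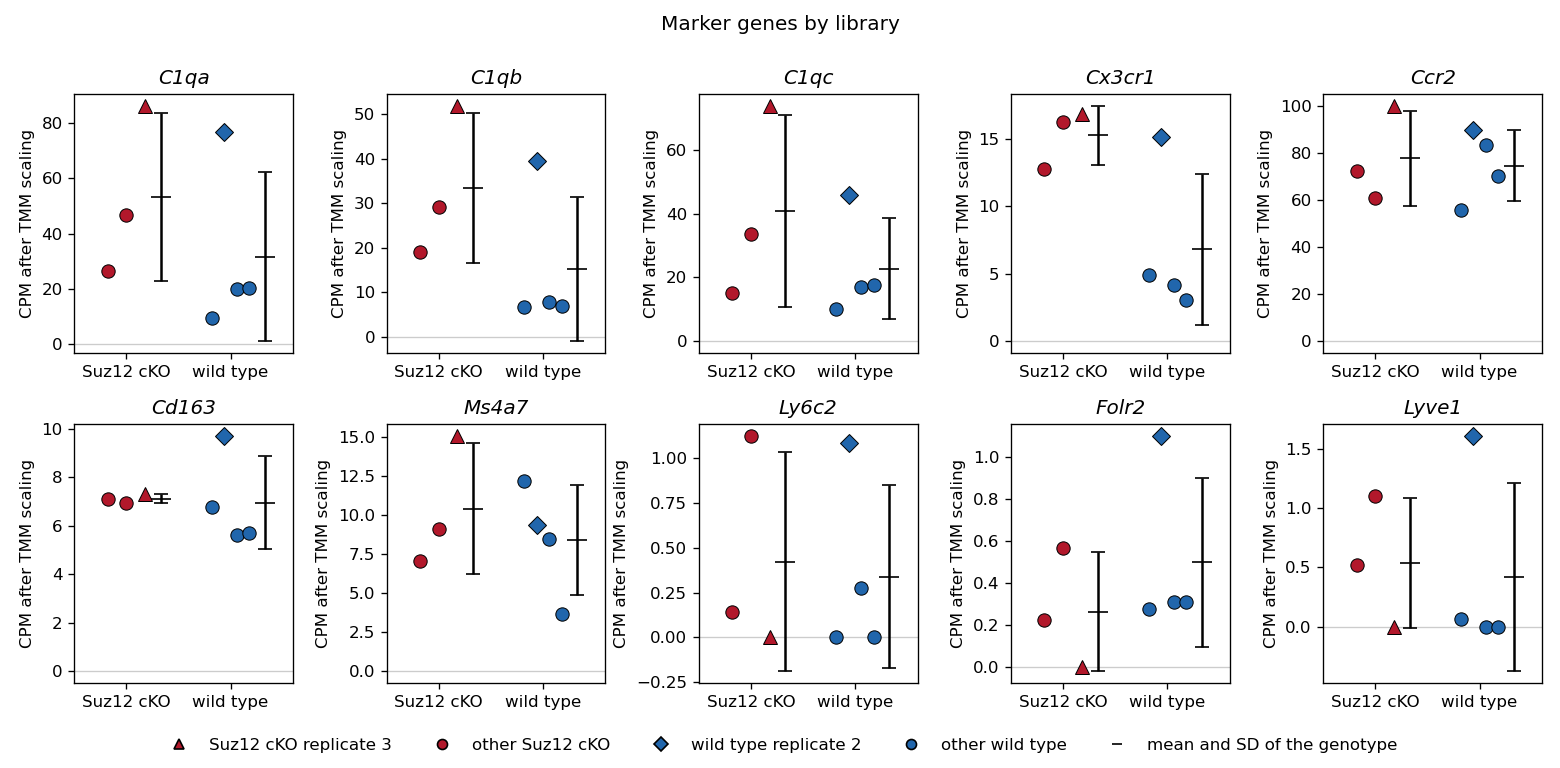
CPM of each marker gene in each library (vertical axes, linear; each panel has its own scale), with Suz12 cKO left of wild type and the mean ± SD of each genotype beside the points. Wild type replicate 2 (diamond) lies above wild type replicates 1, 3 and 4 for 9 of the 10 markers, all but Ms4a7; Suz12 cKO replicate 3 (triangle) has the highest level of C1qa, C1qb, C1qc, Cx3cr1, Ccr2 and Ms4a7 and no count of Ly6c2, Folr2 or Lyve1.

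The starts of 4 genes are shown because C1qb, C1qc and Cx3cr1 varied 7.66, 7.27 and 5.44 times between the lowest and the highest library, and Ccr2 1.80 times. All 4 shared the highest library, Suz12 cKO replicate 3. Each line gives 250 bases before and 50 after a start of the gene (RefSeq, GRCm38.p6). CG dinucleotides, the sites of DNA methylation and a feature of many polycomb targets, are in capitals. For C1qb and Cx3cr1 this start is the outer end of the gene as placed below, and for C1qc it lies inside the gene. The Ccr2 window lies wholly inside the gene (124101918 to 124109140), so it holds no bases before that outer end.
C1qb, chr4:136886151-136886450, minus strand: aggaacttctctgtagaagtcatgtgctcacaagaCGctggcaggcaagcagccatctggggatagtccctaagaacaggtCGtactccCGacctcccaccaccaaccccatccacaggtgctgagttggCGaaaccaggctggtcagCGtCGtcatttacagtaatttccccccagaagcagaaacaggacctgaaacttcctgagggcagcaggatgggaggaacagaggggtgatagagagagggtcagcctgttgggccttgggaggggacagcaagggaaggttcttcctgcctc
C1qc, chr4:136892865-136893164, minus strand: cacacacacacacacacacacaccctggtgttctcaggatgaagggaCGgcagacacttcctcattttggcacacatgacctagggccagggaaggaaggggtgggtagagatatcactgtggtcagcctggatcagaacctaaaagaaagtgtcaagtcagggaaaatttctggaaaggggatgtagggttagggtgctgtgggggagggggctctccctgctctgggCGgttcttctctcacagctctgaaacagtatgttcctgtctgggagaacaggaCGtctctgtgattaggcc
Cx3cr1, chr9:120068247-120068546, minus strand: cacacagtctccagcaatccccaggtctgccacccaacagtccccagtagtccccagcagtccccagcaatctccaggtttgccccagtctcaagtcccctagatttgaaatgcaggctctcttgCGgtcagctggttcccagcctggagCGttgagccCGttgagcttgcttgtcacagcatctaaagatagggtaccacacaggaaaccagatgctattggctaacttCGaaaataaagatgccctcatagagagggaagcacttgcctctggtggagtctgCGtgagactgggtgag
Ccr2, chr9:124101933-124102232, plus strand: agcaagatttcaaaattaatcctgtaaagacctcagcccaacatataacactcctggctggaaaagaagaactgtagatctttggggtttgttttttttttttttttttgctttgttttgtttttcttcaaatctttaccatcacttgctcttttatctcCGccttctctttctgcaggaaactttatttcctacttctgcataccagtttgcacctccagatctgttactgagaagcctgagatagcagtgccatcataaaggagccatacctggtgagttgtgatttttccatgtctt
These windows held 6, 3, 5 and 1 CG dinucleotides. Over all 11 windows of the 8 markers with an entry, the number ran between 0 and 6, with a median of 7 and quartiles of 3 and 20 over 32851 promoter windows; the start of Suz12 itself held 41. The letters GAGGAAGT, a form of the core bound by the myeloid factor PU.1, were searched on both strands. They occurred in 3.2% of all windows and in those of C1qc (1 match) and Ly6c2 (2 matches), and not in the windows of the other 6 markers. A match to TGANTCA, the letters of an AP-1 site, occurred in 1 window each of Folr2 and Ms4a7 and in 7.81% of all windows.

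The chains of C1q lie side by side on chromosome 4 in GRCm38, on the minus strand, with C1qb at 136880126 to 136886200, C1qc at 136889801 to 136892936 and C1qa at 136895916 to 136898844. C1qa was at 26.5, 46.9 and 86.3 CPM in Suz12 cKO replicates 1 to 3, against 9.53, 76.9, 20.0 and 20.2 CPM in wild type replicates 1 to 4. C1qb was at 19.1, 29.2 and 51.9 CPM in Suz12 cKO, against 6.77, 39.5, 7.82 and 6.87 CPM in wild type. C1qc was at 15.01, 33.8 and 73.9 CPM in Suz12 cKO, against 10.2, 45.9, 16.9 and 17.7 CPM in wild type. All 3 genes had the same order of libraries at the top: Suz12 cKO replicate 3 was highest and wild type replicate 2 next. Wild type replicates 1, 3 and 4 were low for each chain, and Suz12 cKO replicate 1 was below 2 of them for C1qc.

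The means of C1qa were 53.2 ± 30.4 CPM in Suz12 cKO and 31.7 ± 30.5 CPM in wild type (SD, n = 3 and n = 4), a log2 fold change of 0.75 with a standard error (SE) of 0.65 and an edgeR adjusted p of 0.553. C1qb averaged 33.4 ± 16.8 CPM in Suz12 cKO and 15.2 ± 16.2 CPM in wild type (log2 fold change 1.13, SE 0.66, edgeR adjusted p = 0.348). C1qc averaged 40.9 ± 30.1 CPM in Suz12 cKO and 22.7 ± 15.9 CPM in wild type (0.85, SE 0.59, edgeR adjusted p = 0.434). Each difference of means was close to or below the SD of its groups, and none was called. Wild type replicate 2 was 4.63, 5.52 and 3.07 times the mean of wild type replicates 1, 3 and 4 for C1qa, C1qb and C1qc. Suz12 cKO replicate 3 was 2.35, 2.15 and 3.03 times the mean of Suz12 cKO replicates 1 and 2.

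Per length, in reads per kilobase per 1e6 (RPKM), the chains summed to 56.7, 103 and 199 in Suz12 cKO and to 24.8, 152, 41.9 and 42.0 in wild type. C1qa held 40.1% to 43.1% of that sum in Suz12 cKO and 35.5% to 46.8% in wild type. The share of C1qb was 31.8%, 26.7% and 24.6% in Suz12 cKO, against 25.7%, 24.5%, 17.6% and 15.4% in wild type, and that of C1qc was 25.1% to 35.3% in Suz12 cKO and 28.7% to 40.1% in wild type. The chains thus varied more in their common level, over a range of 7.27 to 9.06 times between the lowest and the highest library, than in their proportions. The share of C1qb in Suz12 cKO replicate 3 lay below that in wild type replicate 1, so the ranges overlapped.

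**Figure D2:**
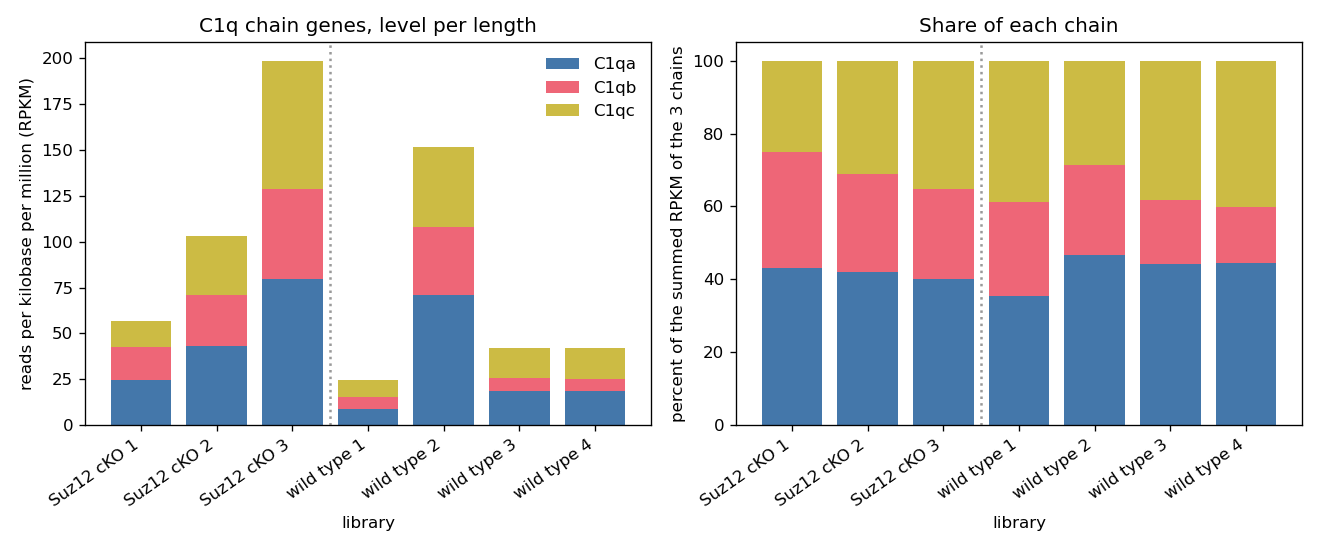
Left, RPKM of the 3 C1q chain genes stacked by library; right, the percentage of their summed RPKM held by each chain. Suz12 cKO libraries are left of the dotted line and wild type libraries right of it; the sums run between 24.8 and 199 RPKM, and C1qa holds between 35.5% and 46.8% in every library.

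Cx3cr1 (chromosome 9, 120048683 to 120068296) had the tightest values in Suz12 cKO of the 4 genes in this group. It was at 12.8, 16.3 and 16.8 CPM in Suz12 cKO, against 4.89, 15.2, 4.19 and 3.09 CPM in wild type. The Suz12 cKO libraries were each above wild type replicates 1, 3 and 4, and wild type replicate 2 lay among them. Cx3cr1 averaged 15.3 ± 2.20 CPM in Suz12 cKO and 6.83 ± 5.60 CPM in wild type (SD), with a fitted log2 fold change of 1.16 (SE 0.50) and an edgeR adjusted p of 0.191. A stretch of 78 bases of its exons is shared with Gm33858 on the other strand, and whether reads were counted by strand is not given.

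Leaving out wild type replicate 2 changed the calls. That library had the highest wild type level of C1qa, C1qb, C1qc and Cx3cr1, so its removal raises their fold changes and narrows their wild type spread. The p-values without it describe the remaining libraries and are no independent support for a difference between the genotypes. Cx3cr1, C1qb and C1qa were then higher in Suz12 cKO by 1.90, 2.21 and 1.67 on the log2 scale (SE 0.24, 0.33 and 0.43; edgeR adjusted p = 0.00141, 0.003 and 0.0291). C1qc had 1.44 (SE 0.49, adjusted p = 0.0791). That made 3 of the 8 markers still tested, against 10.7% of all genes called higher in that fit. Ranges of Suz12 cKO lay wholly above wild type replicates 1, 3 and 4 for Cx3cr1, C1qa, C1qb and Cd163, and for 19.9% of tested genes. With Suz12 cKO replicate 3 left out as well, Cx3cr1 (1.82, SE 0.27, adjusted p = 0.00309) and C1qb (1.74, SE 0.22, adjusted p = 0.00174) were called, against 11.4% of genes, while C1qa (1.13, adjusted p = 0.0589) and C1qc (0.69, adjusted p = 0.223) were not.

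The comparison gave other values in libraries rich and poor in haemoglobin RNA, divided at 20 CPM. Among the rich ones, Suz12 cKO replicates 1 and 2 were set against wild type replicate 2: the log2 fold changes of C1qa, C1qb, C1qc and Cx3cr1 were -1.06, -0.71, -0.91 and -0.062, and 0 of 10 markers were called (4 at an unadjusted p under 0.05), against 6.8% of genes. Among the poor ones, Suz12 cKO replicate 3 was set against wild type replicates 1, 3 and 4. Here the same 4 genes had 2.37, 2.84, 2.29 and 2.04 (edgeR adjusted p = 0.00946, 6.6e-04, 0.00466 and 0.0135), where 4.08% of genes were called higher. Each of these fits rests on 1 library of 1 genotype, which has no spread of its own and is taken to have that of the other group. Suz12 cKO replicate 3 is also the library with the highest level of all 4 genes, so these p-values describe that library and not the genotype. The difference between the strata was not tested.

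**Figure D3:**
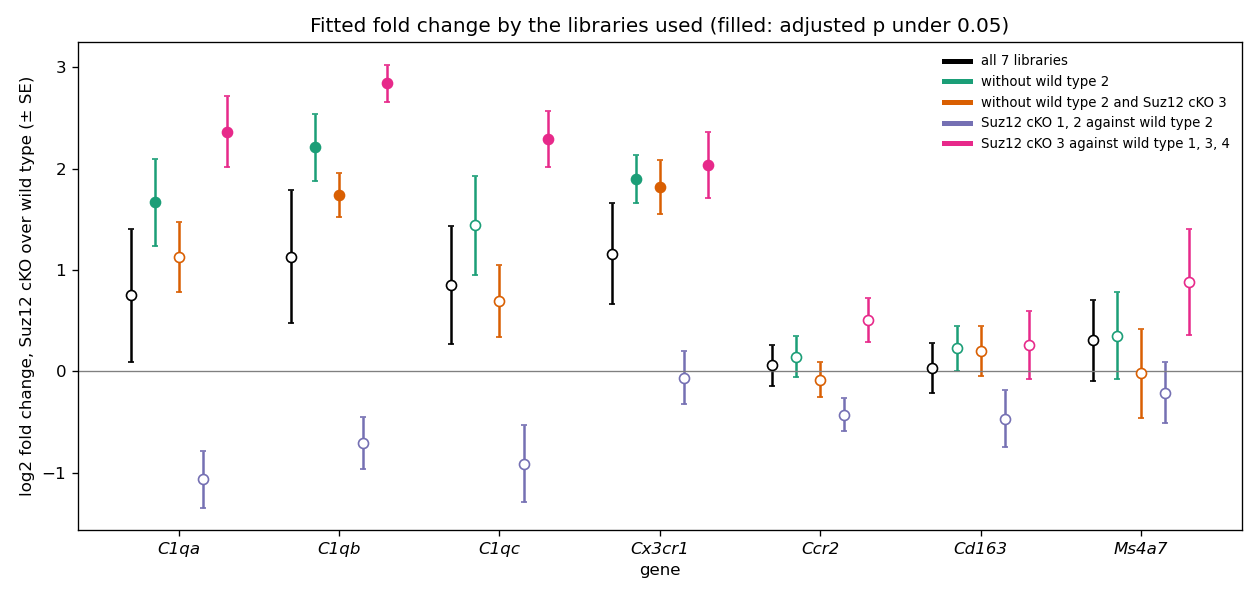
Log2 fold change of Suz12 cKO over wild type with its SE (vertical axis) for the 7 markers above trace level, by the libraries that entered the fit (colours); filled points have an edgeR adjusted p under 0.05. For C1qa the value is -1.06 in the libraries rich in haemoglobin RNA, 0.75 over all 7 libraries and 2.37 in those poor in it; for Cd163 all 5 values lie between -0.47 and 0.26.

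Genes listed as markers of other cells followed the C1q and Cx3cr1 levels in part. Summed over 10 genes of alveolar epithelium, they stood at 141, 163 and 132 CPM in Suz12 cKO, against 65.1, 156, 70.3 and 71.6 CPM in wild type. Cdh1, which encodes E-cadherin, made up most of this sum in every library but wild type replicate 2. It was at 102, 87.4 and 112 CPM in Suz12 cKO, against 49.7, 64.4, 45.1 and 44.6 CPM in wild type. The high sum in Suz12 cKO replicate 3 thus rests on Cdh1. In that library Sftpb, Sftpa1, Sftpd, Aqp5 and Slc34a2 had no count, and Hopx, Ager and Scgb1a1 were at 19.0, 0.644 and 0.476 CPM. Which cells gave the Cdh1 RNA was not tested. Cdh1 was called higher and the other 9 genes were not called, a share of 10% near the 10.3% of all genes. Sftpc, a defining gene of type II cells, was at 4.53, 9.08 and 0 CPM in Suz12 cKO, against 0, 10.6, 0 and 0.0412 CPM in wild type. Summed over 10 dendritic cell genes, levels were 58.5, 76.2 and 138 CPM in Suz12 cKO, against 34.9, 103, 74.0 and 81.1 CPM in wild type. The sum in Suz12 cKO replicate 1 was below that in wild type replicates 3 and 4. Ccr7, a homing receptor of migrating dendritic cells, held most of the sum in Suz12 cKO replicate 3, at 16.7, 32.6 and 89.9 CPM in Suz12 cKO, against 5.60, 37.1, 27.7 and 28.2 CPM in wild type. Clec9a, a receptor of conventional dendritic cells, was at 13.1, 11.8 and 5.96 CPM in Suz12 cKO, against 9.87, 18.9, 9.47 and 11.9 CPM in wild type. Itgae, the integrin CD103, was at 3.24, 7.13 and 8.49 CPM in Suz12 cKO, against 3.66, 16.5, 14.3 and 13.3 CPM in wild type, so neither followed C1q. The part of these cells in the C1q and Cx3cr1 levels was not tested. Suz12 cKO replicate 3, the library with the most C1q RNA, had no count of Sftpc, Ly6c2, Folr2 or Lyve1.

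Ccr2 (chromosome 9, 124101918 to 124109140), the receptor for CCL2, was clearly present in every library. It was at 72.6, 60.9 and 100 CPM in Suz12 cKO, against 55.8, 89.9, 83.4 and 70.3 CPM in wild type. Suz12 cKO replicate 3 was the highest library and wild type replicate 1 the lowest, and the ranges overlapped over most of their width. The means of 78.0 ± 20.3 CPM in Suz12 cKO and 74.8 ± 15.1 CPM in wild type (SD, n = 3 and n = 4) gave a log2 fold change of 0.059 (SE 0.20, edgeR adjusted p = 0.91).

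Cd163 (chromosome 6, 124304636 to 124330529), the haemoglobin scavenger, was the least variable marker in Suz12 cKO. Its levels were 7.12, 6.94 and 7.30 CPM in Suz12 cKO, against 6.78, 9.72, 5.64 and 5.69 CPM in wild type. Wild type replicate 2 was again the highest of all, and without it Suz12 cKO lay just above wild type with a log2 fold change of 0.23 (SE 0.22, edgeR adjusted p = 0.553). Over all libraries the means were 7.12 ± 0.180 CPM in Suz12 cKO and 6.96 ± 1.91 CPM in wild type (log2 fold change 0.033, SE 0.25, edgeR adjusted p = 0.961).

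Ms4a7 (chromosome 19, 11321039 to 11336146) followed neither pattern. It was at 7.09, 9.12 and 15.1 CPM in Suz12 cKO, against 12.2, 9.39, 8.48 and 3.69 CPM in wild type. Wild type replicate 2 was not its highest wild type library, and Suz12 cKO replicate 3 was its highest library overall. Ms4a7 averaged 10.4 ± 4.17 CPM in Suz12 cKO and 8.43 ± 3.53 CPM in wild type (log2 fold change 0.31, SE 0.40, edgeR adjusted p = 0.716).

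Ly6c2, Folr2 and Lyve1 were near or at the detection limit. Ly6c2 (chromosome 15, 75108161 to 75112066) had 9, 74 and 0 counts in Suz12 cKO replicates 1 to 3, against 0, 66, 16 and 0 counts in wild type replicates 1 to 4. In CPM these were 0.142, 1.13 and 0 in Suz12 cKO, against 0, 1.08, 0.272 and 0 in wild type. The exact 95% intervals were 0.885 to 1.41 CPM in Suz12 cKO replicate 2 and 0.838 to 1.38 CPM in wild type replicate 2. Most of the Ly6c2 counts thus came from 1 library of each genotype.

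Lyve1 (chromosome 7, 110850607 to 110862953) had 33, 72 and 0 counts in Suz12 cKO, against 5, 98, 0 and 0 counts in wild type, or 0.521, 1.10 and 0 CPM in Suz12 cKO against 0.0622, 1.61, 0 and 0 CPM in wild type. It was higher in each of the 3 libraries rich in haemoglobin RNA than in each of the other 4, as were 8.6% of all tested genes; of the 10 markers it was the only one. Folr2 (chromosome 7, 101839988 to 101857190) had 14, 37 and 0 counts in Suz12 cKO, against 22, 67, 18 and 15 counts in wild type, or 0.221, 0.563 and 0 CPM in Suz12 cKO against 0.274, 1.10, 0.307 and 0.309 CPM in wild type. Wild type replicates 1, 3 and 4 were close to each other for Folr2, and wild type replicate 2 was 3.71 times their mean.

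None of these 3 genes was called by edgeR (adjusted p = 0.957 for Ly6c2, 0.95 for Lyve1 and 0.779 for Folr2), and their fitted fold changes depend on the treatment of zeros and set no bound on a difference. A count of 0 in Suz12 cKO replicate 3 allows up to 0.042 CPM at a floor of 3 counts, and in wild type replicate 4 up to 0.0619 CPM. Intervals and floors cover counting error only, since reads without molecular identifiers are not independent molecules. Of the 85-base windows in the annotated Ly6c2 transcripts, 8% also occur in transcripts of its neighbour Ly6c1, and 45% of those of Folr2 occur in Gm10602, which overlaps it on the other strand, so both levels are uncertain. The share was 0 for 7 of the markers.

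Suz12 cKO replicate 1, with the most haemoglobin RNA, had less Ly6c2 than wild type replicate 3, so Ly6c2 did not follow haemoglobin in every library. The libraries with the most Ly6c2, Suz12 cKO replicate 2 and wild type replicate 2, also had the most B cell RNA: the summed level of 8 B cell genes, among them the immunoglobulin gene Ighm, was 4.17, 34.8 and 3.58 CPM in Suz12 cKO, against 1.54, 31.0, 1.70 and 1.98 CPM in wild type. Summed over 10 fibroblast and mural genes, levels were 5.60, 8.68 and 3.48 CPM in Suz12 cKO, against 4.24, 26.3, 4.72 and 4.66 CPM in wild type. In the dendritic cell, erythroid, endothelial, fibroblast and mural, T and NK cell, B cell and platelet lists edgeR called 0 genes, against 10.3% of all genes. The fibroblast and the platelet list each had 1 gene with an unadjusted p under 0.05 in edgeR, and DESeq2 called 1 gene in each of them and 0 in the others. The part of such cells in the trace markers was not tested.

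**Figure D4:**
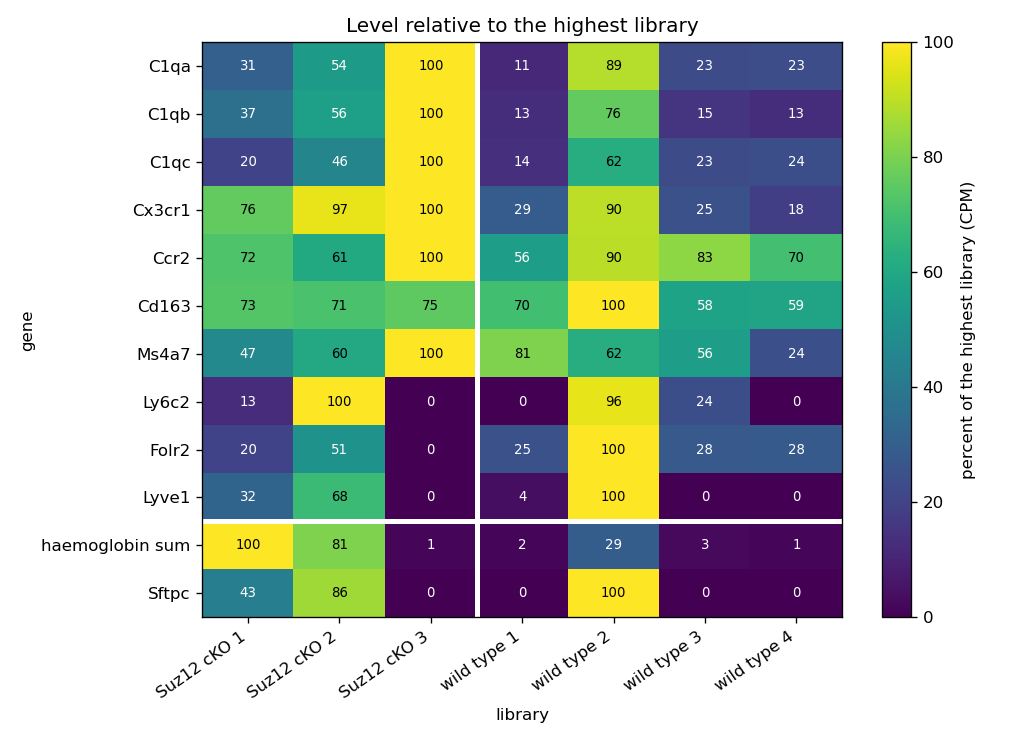
Level of each marker in each library as a percentage of its highest library (colour and printed number), with summed haemoglobin transcripts and Sftpc below the white line and Suz12 cKO left of wild type. Ly6c2 and Lyve1 are highest in Suz12 cKO replicate 2 and wild type replicate 2, like Sftpc, whereas C1qa, C1qb, C1qc and Cx3cr1 are highest in Suz12 cKO replicate 3, where Sftpc is at 0.

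Levels per length set the markers in order. In Suz12 cKO, C1qa led at 49.2 ± 28.1 RPKM, followed by C1qc at 38.8 ± 28.6, C1qb at 31.5 ± 15.8, Ccr2 at 21.7 ± 5.65, Ms4a7 at 11.1 ± 4.44, Cx3cr1 at 4.10 ± 0.590 and Cd163 at 1.59 ± 0.0402 RPKM (SD, n = 3). In wild type the order was C1qa at 29.3 ± 28.2, C1qc at 21.5 ± 15.1, Ccr2 at 20.9 ± 4.21, C1qb at 14.3 ± 15.2, Ms4a7 at 8.98 ± 3.76, Cx3cr1 at 1.83 ± 1.502 and Cd163 at 1.55 ± 0.426 RPKM (SD, n = 4). The spans of mean ± SD overlapped among the C1q genes and Ccr2 in each genotype, and between Cx3cr1 and Cd163 in wild type. Such overlap leaves out that the genes share libraries. Within libraries, C1qb was at 0.345 to 0.736 times the RPKM of C1qa, below it in every library, and C1qc at 0.582 to 1.09 times. Differences between genes were not tested. Ly6c2, Folr2 and Lyve1 were under 0.53 RPKM on average in both genotypes. By mean RPKM over all libraries, C1qa exceeded 85.7% of tested genes and Ccr2 75.3%, Cx3cr1 32.97% and Cd163 26.0%, and Lyve1 7.39%.

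Genes with a profile like that of the C1q chains were sought by the root mean square (RMS) difference of centred log2 CPM over the 7 libraries, among 11066 genes. The nearest was Adgrg6, an adhesion G protein-coupled receptor, at an RMS difference of 0.23: it was at 2.97, 5.22 and 11.01 CPM in Suz12 cKO, against 1.18, 5.78, 2.30 and 2.58 CPM in wild type. Next came Cmklr1, the receptor for chemerin (0.35), C3ar1, the receptor for the complement fragment C3a (0.38), Snai3 (0.40) and Tmem176b (0.41). C3ar1 was at 11.3, 16.9 and 19.6 CPM in Suz12 cKO, against 4.16, 17.5, 6.81 and 8.35 CPM in wild type. Of these 5 genes 0 were called by edgeR, with adjusted p between 0.0964 (Tmem176b) and 0.322 (Cmklr1), and only Tmem176b had an unadjusted p under 0.05. The genes nearest to Ccr2 were F630111L10Rik, Il1rap, Jak2, Map4k4 and Ttc39c, at RMS differences of 0.09 to 0.13; Jak2, a kinase of cytokine receptors, was at 67.4, 71.4 and 107 CPM in Suz12 cKO, against 62.7, 86.8, 85.8 and 74.9 CPM in wild type.

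Some other monocyte genes differed between the genotypes. This list and those below were chosen with earlier results of these data known, so their shares called are descriptions and not tests. Of 22 further monocyte genes, all tested, 8 rose in Suz12 cKO and 2 fell, against 6.28% and 4.02% of all genes. Their median log2 fold change was 0.81. Vcan, a matrix proteoglycan of classical monocytes, was at 20.7, 14.95 and 14.9 CPM in Suz12 cKO, against 3.26, 2.64, 2.13 and 2.04 CPM in wild type (log2 fold change 2.74, SE 0.24), and Fn1, fibronectin, rose by 1.36 (SE 0.18). Ace, angiotensin-converting enzyme, and Napsa, an aspartic protease, rose by 1.03 and 0.79 (SE 0.10 each). Unlike for C1q, wild type replicate 2 lay below all Suz12 cKO libraries for these 4 genes: Ace was at 184, 188 and 184 CPM in Suz12 cKO, against 103, 93.3, 83.4 and 83.1 CPM in wild type. Their edgeR adjusted p ran between 5.67e-04 (Vcan) and 0.00265 (Fn1). The genes that fell were Clec4a3, a lectin receptor gene (log2 fold change -0.65, SE 0.11), and Spn, which encodes CD43 (-0.61, SE 0.12). The list thus did not move in 1 direction. Without wild type replicate 2, 12 rose and 2 fell.

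Of 24 further genes of interstitial macrophages, 22 were tested, 4 rose and 1 fell, against 6.28% and 4.02% of all genes. DESeq2 called 8 of them higher, against 9.65% of all genes. The median log2 fold change was 0.48, and 0.37 to 0.88 when 1 library was left out. Mrc1, the mannose receptor, which alveolar macrophages also carry, rose by 0.40 and Hpgds, a prostaglandin synthase, by 0.62 (SE 0.08 and 0.15), and Apoe rose by 1.41 (SE 0.35). The receptor gene Gpr34 fell, to 1.17, 2.89 and 2.07 CPM in Suz12 cKO, against 17.4, 13.5, 18.4 and 12.8 CPM in wild type (log2 fold change -2.92, SE 0.33, edgeR adjusted p = 0.00164). The number that rose depended on single libraries: it was 12 without wild type replicate 2, and 2, 0 and 1 without wild type replicates 1, 3 and 4. Without Suz12 cKO replicates 1, 2 and 3 it was 1, 0 and 3.

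The ligands of CCR2 and CX3CR1 were not called. Of 6 tested genes for ligands and the proteases that release fractalkine, 0 were called by edgeR or DESeq2. By edgeR 2 passed an unadjusted p under 0.05, against 24.5% of all genes. Ccl2 was at 43.8, 48.8 and 14.99 CPM in Suz12 cKO, against 1.78, 18.9, 1.84 and 2.04 CPM in wild type (log2 fold change 2.54, edgeR adjusted p = 0.111), and Ccl7 at 26.9, 20.6 and 5.47 CPM in Suz12 cKO, against 0.149, 11.5, 0.0852 and 0 CPM in wild type (2.59, adjusted p = 0.375). Both had their highest wild type level in replicate 2. Cx3cl1, fractalkine itself, was at 51.9 to 71.6 CPM in Suz12 cKO and at 41.4 to 57.1 CPM in wild type. Without wild type replicate 2, 2 of these genes were called higher.

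Among 24 partners and receptors of complement, 21 were tested, 5 rose and 0 fell, against 6.28% and 4.02% of all genes. The median log2 fold change was 0.079, and ran between -0.016 and 0.55 when 1 library was left out (0.41 without Suz12 cKO replicate 1). C1ra and C1rb, which encode the protease C1r that binds C1q, rose by 0.65 and 0.71 (SE 0.11 and 0.13; edgeR adjusted p = 0.0075 and 0.0117). C1ra was at 65.9, 81.7 and 65.3 CPM in Suz12 cKO, against 44.3, 43.2, 43.8 and 50.0 CPM in wild type, with wild type replicate 2 the lowest, unlike for C1q. C1s1, which encodes the protease that acts next, was at 0.347, 1.13 and 0 CPM in Suz12 cKO, against 0.0124, 0.279, 0.204 and 0.186 CPM in wild type. Cd93, a receptor once proposed to bind C1q, rose by 1.02 (SE 0.13), and the complement receptor integrins Itgax and Itgam rose by 0.67 and 2.20 (SE 0.07 and 0.44). Without Suz12 cKO replicate 2, 3 rose, and 8 rose without both libraries that stood apart.

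In the gene families of Ms4a7 and Ly6c2 few genes were measurable. Of 18 other MS4A genes, 10 were tested, 0 rose and 1 fell, a share of 10% near the 10.3% of all genes. The gene that fell, Ms4a6c, was at 30.5, 38.2 and 33.4 CPM in Suz12 cKO, against 58.9, 49.8, 78.4 and 72.4 CPM in wild type (log2 fold change -0.93, SE 0.17, edgeR adjusted p = 0.00965). Ms4a8a, at 124 to 135 CPM in Suz12 cKO and 143 to 179 CPM in wild type, was not called (edgeR adjusted p = 0.0626). Of 22 other Ly6 genes, 5 were tested, and 0 were called by edgeR or DESeq2 and 0 had an unadjusted p under 0.05 by edgeR. Ly6c1, the near copy of Ly6c2, was at 0.978, 0.868 and 0 CPM in Suz12 cKO, against 0, 1.35, 0 and 0 CPM in wild type. Ly6e was at 370 to 386 CPM in Suz12 cKO and at 296 to 439 CPM in wild type.

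Of 20 genes that handle folate, haemoglobin or hyaluronan, the ligands of Folr2, Cd163 and Lyve1, 17 were tested. Of these 1 rose and 1 fell, a share of 11.8% near the 10.3% of all genes. DESeq2 called 2 higher and 2 lower, against 9.65% and 5.87% of all genes. Hp, which encodes the haptoglobin that delivers haemoglobin to Cd163, was at 4.31, 10.2 and 28.0 CPM in Suz12 cKO, against 1.85, 4.59, 3.76 and 2.29 CPM in wild type (log2 fold change 2.18, SE 0.58, edgeR adjusted p = 0.0471). The number of genes of this list called higher was 0 without Suz12 cKO replicate 2 or wild type replicate 1, 3 or 4, and 2 without wild type replicate 2. For genes called lower it was 0 without Suz12 cKO replicate 1 or 2 or wild type replicate 1, and 3 without Suz12 cKO replicate 3. Hmmr, a hyaluronan receptor of dividing cells, fell by 1.92 on the log2 scale (SE 0.40, adjusted p = 0.0182). Has1, a hyaluronan synthase, was at 40.7, 4.84 and 3.32 CPM in Suz12 cKO, against 0.473, 2.45, 0.102 and 0.907 CPM in wild type, and was not called (adjusted p = 0.0503). Of 10 genes shared by all macrophages, edgeR called 0 and DESeq2 called 3, against 10.3% and 15.5% of all genes. In edgeR 5 of them passed an unadjusted p under 0.05, against 24.5% of all genes. Csf1r, the growth factor receptor of monocytes and macrophages, was at 384 to 424 CPM in Suz12 cKO and at 365 to 464 CPM in wild type. Of 18 alveolar macrophage genes 5 rose and 3 fell, against 6.28% and 4.02% of all genes. Among them were Itgax, Fabp4 and Ear1, which rose by 0.67, 2.25 and 0.89, and Epcam, which fell by 1.89 on the log2 scale. Summed over 11 neutrophil genes, levels were 187, 256 and 227 CPM in Suz12 cKO, against 128, 125, 140 and 114 CPM in wild type. Of the 8 neutrophil genes tested, 4 were called higher (S100a8, Retnlg, Cxcr2 and Csf3r), against 6.28% of all genes. Mmp8, Mmp9, S100a9 and Ltf were not called. Mmp8, Csf3r and S100a8, present in every library of both genotypes, made up most of the sum. Ly6g and Camp had no count in any library, and Ngp had counts in wild type replicate 2 only. Ltf was at 0.110, 0.761 and 0 CPM in Suz12 cKO, against 0.610, 4.37, 0.613 and 1.07 CPM in wild type. S100a9 had no count in Suz12 cKO replicate 3 or in wild type replicates 1, 3 and 4. The part of neutrophils in the monocyte genes above was not tested.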

How the data were processed

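RNA was measured in 3 Suz12 cKO and 4 wild type libraries of sorted alveolar macrophages. The authors deposited unnormalized counts for each gene; featureCounts and mm10 are named in the submitters' processing notes, while the aligner, annotation, strand setting, versions and treatment of reads with several matches are not stated there. RPKM used the length column of the deposited table, whose counts equal those in the 7 files of single samples. The labels call the libraries biological replicates without tying each to a mouse, so p-values measure the spread between these libraries. Replicates correlated at r = 0.916 to 0.969 across genes (log2 CPM, prior count 2), with a chi-square per degree of freedom of 42.4 to 221, so none was a copy.

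Symbols and positions came by Entrez number from RefSeq (GRCm38.p6, the assembly of mm10): 25275 of 27179 genes matched. Low genes were removed by filterByExpr (minimum count 10, minimum total 15). After TMM scaling the genotypes were compared in R 4.3.3 by the quasi-likelihood test of edgeR 4.0.16, genotype being the only term, with Benjamini-Hochberg adjustment over the 14436 tested genes. The fit was tested on simulated data. The SE is the log2 fold change divided by the square root of F. Intervals are exact (Clopper-Pearson), 95%. Shared windows and overlaps were read from GENCODE M21 transcripts. C1qa and Lyve1 had no promoter entry.

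The markers and the 21 gene lists were chosen with earlier results of these data known; 5 listed symbols (Ccl13, Ms4a12, Ly6l, Hbb-bt and Hbb-b2) matched no gene of the table. Named genes were Suz12, the 10 markers, the 4 smallest p of each list around them and of the alveolar macrophage list, the 3 highest genes of each other cell type, and the 5 nearest profiles to C1q and to Ccr2. Others (Chil3, Siglecf, Sftpc, Csf1r, Apoe, Itgam, Clec4a3, Spn, C1s1 and the further epithelial and neutrophil genes) were added after their values were seen. Alternatives were DESeq2 1.42.0, other scalings, no filter, each library left out, a replicate block and the haemoglobin split.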

Additional observations from a re-analysis of the deposited data

Results flagged for a closer look

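In the 4 wild type libraries the gap between the farthest library and its nearest neighbour was taken over the whole range. It was compared with Dixon's 95% critical value, which chance passes in about 1 of 20 groups of normally distributed values. CPM with zeros need not be so distributed. Wild type replicate 2 was already shown apart, and the quantities share libraries and in part genes. They are not independent, so the number that passed is a description. Of 31 quantities examined, 12 passed, and in all 12 the far library was wild type replicate 2. Among the markers these were Cx3cr1 at 15.2 CPM (nearest other wild type library 4.89 CPM), C1qa at 76.9 CPM (20.2), C1qb at 39.5 CPM (7.82), Folr2 at 1.10 CPM (0.309) and Lyve1 at 1.61 CPM (0.0622). The summed C1q level was 162 CPM there, against 44.8 CPM in the nearest library. Among the lists, the 22 monocyte genes summed to 9480 CPM (nearest 6198), erythroid genes to 58.8 CPM (5.48), alveolar epithelial genes to 156 CPM (71.6), fibroblast and mural genes to 26.3 CPM (4.72), T and NK cell genes to 5.74 CPM (1.43) and B cell genes to 31.0 CPM (1.98). The part of these other cells in the marker levels was not tested.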

How the results depend on the processing

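The count of 0 markers called held under DESeq2, both other scalings, no filter, a term for haemoglobin RNA and the fit within the libraries rich in haemoglobin RNA, and 0 were called lower under any alternative. It was 3 higher without wild type replicate 2 (0 to 3 over the 7 fits that leave out 1 library), 2 without both libraries that stood apart and 4 within the libraries poor in haemoglobin RNA. Over all genes, 906 were called higher and 580 lower. Leaving out 1 library gave 447 to 1515 higher and 268 to 885 lower, and DESeq2 gave 1393 higher. Without both libraries that stood apart 1679 were higher and 1065 lower, and the rich and poor libraries gave 328 and 367 lower. Replicate numbers did not pair the samples (same-numbered libraries had correlations of their deviations of -0.06, 0.23 and 0.20, and Suz12 cKO replicate 1 was closest to wild type replicate 2); the replicate block, without wild type replicate 4, gave 549 higher and 261 lower, with 0 markers called.

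Signs turned for each of the 10 markers under 1 or more alternatives, for C1qa, C1qb, C1qc and Cx3cr1 only within the rich libraries. Fitted values of Ly6c2, Folr2 and Lyve1 depend on the treatment of zeros and are no bounds. Over the fits that leave out 1 library, log2 fold changes ran from -2.23 to 0.89 for Ly6c2, -0.68 to 0.94 for Lyve1, -0.18 to 0.21 for Ccr2, -0.065 to 0.23 for Cd163 and -0.071 to 0.54 for Ms4a7. With the block they were -0.10 for Ly6c2, -0.024 for Cd163 and -0.0074 for Ms4a7. Without both libraries that stood apart Ccr2 had -0.082, Folr2 0.39 and Ms4a7 -0.017. With the haemoglobin term Ly6c2 had -2.23, Lyve1 -1.65 and Cd163 -0.072. Within the rich libraries the values were -0.77 for Ly6c2, -0.43 for Ccr2, -0.062 for Cx3cr1, -1.06 for C1qa, -0.71 for C1qb, -0.91 for C1qc, -0.99 for Lyve1, -0.47 for Cd163 and -0.21 for Ms4a7, and within the poor ones -5.60 for Ly6c2. The cause was not tested. Fewer libraries entered these fits, except that with the haemoglobin term, which used all 7. Of the counts called higher and lower in the surrounding lists, 32 of 112 and 13 of 112 moved by over 1.5 times, and 37 of 112 medians moved.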
